A study of Mus musculus with 10 samples.

Results

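The glutathione, glucuronosyl and sulfo transferase genes of the mouse liver were compared between Fbp1-deleted and wild-type (WT) animals. The set was defined by symbol alone and not by any measured value, though earlier results of these data were known. It took the protein-coding genes whose symbols begin with Gsta, Gstk, Gstm, Gsto, Gstp, Gstt, Mgst, Ugt1, Ugt2, Ugt3 or Sult, which gave 66 of the 53392 genes in the table. It held 24 glutathione transferase genes, 21 glucuronosyltransferase genes and 21 sulfotransferase genes. The livers came from C57BL/6 mice aged 24 weeks, in 2 groups of 5, Fbp1-deleted animals that lack hepatic Fbp1 (replicates 6 to 10) and wild-type animals (WT, replicates 1 to 5). The deleted gene encodes the gluconeogenic enzyme fructose bisphosphatase. What drives the deletion is not given in the sources used here, and neither is the sex of the animals. The design text calls the 5 livers of a group biological replicates.

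All 3 enzyme classes tag small molecules with a soluble group so that they leave the cell in bile or urine. Glutathione transferases join the tripeptide glutathione to reactive, electron-poor compounds, glucuronosyltransferases in the endoplasmic reticulum add glucuronic acid from UDP-glucuronate, and cytosolic sulfotransferases add sulfate from the donor PAPS. Hepatocytes are rich in enzymes of each class. Many of these genes sit in clusters of close copies, and several are known to differ between male and female mouse liver.

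Levels are given as CPM (counts scaled to 1000000 per library) with TMM-scaled library sizes, and the values of a group run in the order of the replicate numbers. Changes are log2 differences, Fbp1-deleted minus WT, from edgeR's quasi-likelihood test with its standard error (SE). A gene was called where its Benjamini-Hochberg adjusted p over the 15392 genes tested was under 0.05. Libraries held 17778395 to 23894812 estimated counts. Fbp1 itself had 9.39 ± 2.38 CPM in Fbp1-deleted and 909.6 ± 119 CPM in WT livers (SD, n = 5 each), a change of -6.60 (SE 0.19, adjusted p = 6.13e-11). The RNA came from whole tissue, so fewer cells of a type and less RNA per cell cannot be told apart. Hepatocyte markers were the most abundant of the cell type lists in all 10 livers, between 76648 and 88987 CPM in Fbp1-deleted and between 49679 and 91716 CPM in WT livers in sum. Kupffer cell markers were called lower for 3 of 6 genes, with a sum between 141 and 207 CPM in Fbp1-deleted and between 182 and 258 CPM in WT livers, and lymphocyte markers for 2 of 5 genes tested, with a sum between 7.19 and 10.1 CPM in Fbp1-deleted and between 11.6 and 18.1 CPM in WT livers. Stellate cell markers gave 1 call higher of 6 (Dcn), sinusoidal endothelium 1 call higher of 6 (Lyve1) and hepatocyte markers 1 higher (Cps1) and 1 lower (Fah) of 6. Cholangiocyte markers gave 0 calls of 5 by edgeR, 3 at an unadjusted p under 0.05, 0 by DESeq2 and 1 by limma-voom, with a sum between 12.9 and 22.2 CPM in Fbp1-deleted and between 16.5 and 29.1 CPM in WT livers. Beside these marker counts, 10.6% of all genes tested were called higher and 10% lower. The part of the cell type marker differences in the transferase results was not tested.

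Sequence limits how well these genes can be counted, because reads were divided between similar transcripts by a model. The stretches shown first are from the pi-class genes Gstp1 and Gstp2 and cover coding bases 271 to 330 of 630, on the minus strand of GRCm38. They lie at chr19:4036694-4036753 for Gstp1 and chr19:4040988-4041047 for Gstp2. Capitals mark 5 of the 12 bases by which the coding sequences differ.
Gstp1: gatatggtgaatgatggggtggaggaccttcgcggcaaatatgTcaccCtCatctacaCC
Gstp2: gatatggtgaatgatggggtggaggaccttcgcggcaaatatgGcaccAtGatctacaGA
The coding sequences of Gstp1 and Gstp2 were 98.1% identical, and 60.3% of the 31-base words of Gstp2 transcripts were also found in another gene. The Ugt1 genes differ in another way, since Ugt1a1 and Ugt1a9 each have a first exon of their own and are spliced to the same later exons. The next stretches run across that junction on the plus strand, with the last 45 bases of the own exon in lower case and the first 45 shared bases, chr1:88215044-88215088, in capitals. The own parts lie at chr1:88212827-88212871 for Ugt1a1 and chr1:88071634-88071678 for Ugt1a9.
Ugt1a1: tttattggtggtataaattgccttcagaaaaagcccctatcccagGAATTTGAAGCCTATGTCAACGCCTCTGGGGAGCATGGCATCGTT
Ugt1a9: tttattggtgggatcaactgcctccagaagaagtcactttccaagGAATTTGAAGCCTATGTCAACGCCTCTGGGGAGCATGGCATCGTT
The shared exons make up 735 coding bases, beside 870 own bases in Ugt1a1 and 849 in Ugt1a9, so a read within the shared exons fits either gene. Over 25% of the words were shared with another gene in 25 of the 66 members, and no word was shared in 11. Gstt1 (0.5%), Gsta3 (2.7%) and Sult1c2 (2.0%) were among those with few shared words.

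Of the 66 members 54 passed the filter on low counts, and 12 were called, 3 higher and 9 lower in Fbp1-deleted livers. That is 22.2% of the members tested, where 20.6% of all genes tested were called (10.6% higher, 10% lower), so the share called was near that of all genes. The median change over the members tested was -0.22, against 0.0093 over all genes tested, and 19 members were fitted up and 35 down. The values of the groups did not overlap for 6 members, 1 higher (Gstp2) and 5 lower (Gsta3, Gstt1, Gstt3, Sult1a1 and Sult1c2). Over all genes tested 13.5% did not overlap, 6.57% higher and 6.89% lower. With upper quartile scaling the split of called members was 1 higher and 11 lower, and for all genes it was 1266 higher and 1878 lower, against 1636 higher and 1542 lower with TMM. Library totals gave 1 and 11 among members and 1190 and 1965 among all genes. The 12 members not tested were Gsto2, Gstt4, Mgst2, Sult1c1, Sult2a4, Sult2a6, Sult2b1, Sult6b1, Sult6b2, Ugt2a1, Ugt2a2 and Ugt2b38, and their highest value in any liver was 1.699 CPM. Ugt2a1 and Sult1c1 were at 0 in every library.

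**Figure D1:**
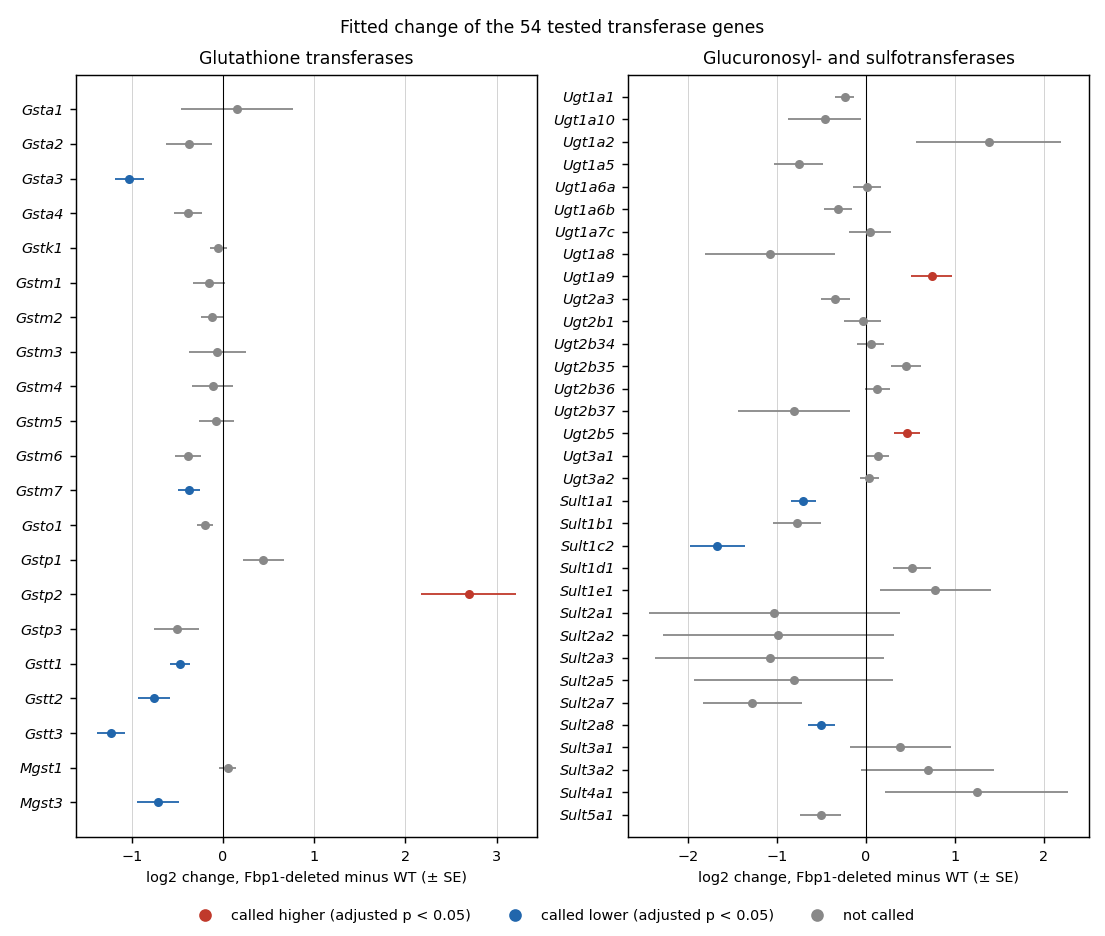
Log2 change (Fbp1-deleted minus WT, points, with the SE as bars) of the 54 members tested, glutathione transferases on the left and glucuronosyl- and sulfotransferases on the right, in red where called higher, in blue where called lower and in grey where not called. All 3 tested Gstt genes are blue, none of the 18 tested Ugt genes is blue, and Sult2a1, Sult2a2, Sult2a3 and Sult2a5 have the widest bars.

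The families differed in their counts, without a test of that difference. Called were 33.3% of the glutathione transferases tested, 11.1% of the glucuronosyltransferases and 20% of the sulfotransferases, beside 20.6% of all genes tested. Over all genes tested 10.6% were called higher and 10% lower, so the glucuronosyltransferase share called higher and the sulfotransferase share called were near those of all genes. Among the glutathione transferases 6 of 21 genes tested were called lower (Gsta3, Gstm7, Gstt1, Gstt2, Gstt3 and Mgst3) and 1 higher (Gstp2). Among the glucuronosyltransferases 2 of 18 were called higher (Ugt1a9 and Ugt2b5) and 0 lower by edgeR (2 lower at an unadjusted p under 0.05, 1 by DESeq2 and 0 by limma-voom). Among the sulfotransferases 3 of 15 were called lower (Sult1a1, Sult1c2 and Sult2a8) and 0 higher by edgeR (1 higher at an unadjusted p under 0.05, 0 by DESeq2 and 0 by limma-voom). The summed level of the glutathione transferases was 4546 ± 655 CPM in Fbp1-deleted and 5447 ± 635 CPM in WT livers, that of the glucuronosyltransferases 3207 ± 483 CPM in Fbp1-deleted and 3141 ± 217 CPM in WT livers and that of the sulfotransferases 1025 ± 271 CPM in Fbp1-deleted and 1514 ± 444 CPM in WT livers (SD, n = 5 each). The sum over all 66 genes was 8778 ± 1039.9 CPM in Fbp1-deleted and 10102 ± 710.3 CPM in WT livers. Between single families, the summed level did not overlap between the groups for Gsta, between 579 and 1018 CPM in the Fbp1-deleted livers and between 1214 and 1575 CPM in the WT livers, nor for Gstt, between 296 and 384 CPM in the Fbp1-deleted livers and between 432 and 651 CPM in the WT livers. The mean sum in Fbp1-deleted livers was 1.36 times the WT mean for Gstp and 1.13 times for Ugt2, with ranges that overlapped, and stayed above the WT mean with upper quartile scaling (1.28 and 1.07) and library totals (1.27 and 1.06). For Mgst, Ugt3 and all Ugt genes together it was 1.03, 1.04 and 1.02 times the WT mean with TMM, and below it under upper quartile scaling (0.975, 0.993 and 0.973) and under library totals (0.966, 0.983 and 0.962).

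**Figure D2:**
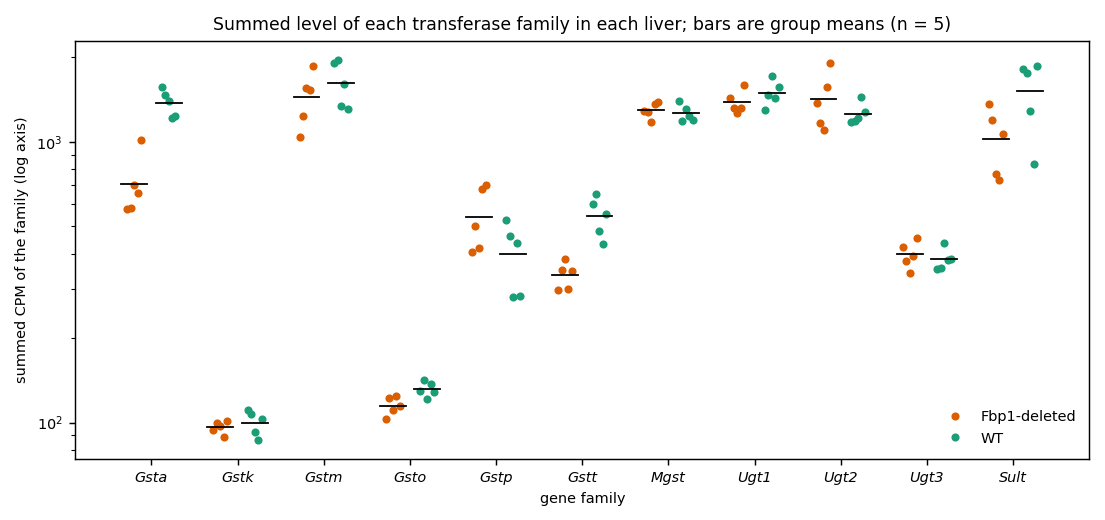
Summed level of the members of each family (CPM, log axis) in each liver, Fbp1-deleted in orange on the left and WT in green on the right of each family, with bars at the group means (n = 5 each). The orange and green points are separate for Gsta and Gstt and overlap in the other 9 families.

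The alpha class conjugates products of lipid peroxidation and reactive toxins, and its main liver transcript was Gsta3, which in mice is known to detoxify the aflatoxin epoxide. Gsta3 (ENSMUSG00000025934.15, chromosome 1, 21240589 to 21265661, plus strand) had 496, 493, 623, 581 and 899 CPM in the Fbp1-deleted livers, against 1424, 1317, 1302, 1122 and 1148 CPM in the WT livers. Every Fbp1-deleted liver was below every WT liver, and replicate 10 was the highest of its group. The change was -1.03 (SE 0.16, adjusted p = 0.000742), or 2.04-fold lower. Gsta3 made up most of the alpha-class level per length, between 83.9% and 87.8% in Fbp1-deleted livers and between 88.8% and 92.9% in WT livers. The other 3 alpha genes were not called. Gsta4, known for clearing hydroxynonenal, was between 46.4 and 63.98 CPM in the Fbp1-deleted livers and between 55.1 and 86.5 CPM in the WT livers, a change of -0.39 (SE 0.15, adjusted p = 0.0889). Gsta1 and Gsta2 share much of their sequence, and summed they gave -0.35 (SE 0.26, adjusted p = 0.375).

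Of the mu-class genes, which form a cluster of 149 kb on chromosome 3, 1 of 7 was called, where 20.6% of all genes tested were. The most abundant per length was Gstm1, at 1351 CPM per kb in Fbp1-deleted and 1508 CPM per kb in WT livers. Gstm1 (ENSMUSG00000058135.12, chromosome 3, 108012255 to 108017973, minus strand) had 851, 1018, 1268, 1279.9 and 1550.1 CPM in the Fbp1-deleted livers, against 1600.1, 1644, 1043, 1318 and 1051 CPM in the WT livers. Its groups overlapped widely, with the lowest value in Fbp1-deleted replicate 6 and the highest in WT replicate 2, and the change was -0.16 (SE 0.18, adjusted p = 0.565). Gstm7 (ENSMUSG00000004035.12, chromosome 3, 107926334 to 107931817, minus strand) had 32.9, 37.1, 49.7, 40.2 and 42.9 CPM in the Fbp1-deleted livers, against 53.9, 58.3, 49.02, 46.3 and 55.1 CPM in the WT livers. Its change was -0.37 (SE 0.12, adjusted p = 0.0368), and Fbp1-deleted replicate 8 was the only liver of its group above the lowest WT livers (replicates 3 and 4). The call of Gstm7 was lost on leaving out any 1 of Fbp1-deleted replicates 6, 7 and 9 and WT replicates 1, 2 and 5 (adjusted p between 0.065 and 0.102) and without WT replicates 4 and 5 together, a fit chosen after the data were seen (0.06), over a range between 0.00848 and 0.102 in its 19 alternatives. The other 5 mu-class genes were fitted between -0.39 (Gstm6) and -0.06 (Gstm3), with adjusted p from 0.0669 to 0.907.

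The theta class, known for acting on halogenated small molecules, had all 3 of its tested genes called lower, where 10% of all genes tested were. Its 4 genes lie within 63.3 kb of chromosome 10, and the fourth, Gstt4, was at most 0.223 CPM and not tested. Gstt3 (ENSMUSG00000001665.11, chromosome 10, 75774115 to 75781414, minus strand) had 54.1, 55.1, 73.7, 56.1 and 77.7 CPM in the Fbp1-deleted livers, against 158, 194, 132, 111 and 147 CPM in the WT livers. The groups did not overlap, and the change of -1.23 (SE 0.15, adjusted p = 0.000186), or 2.34-fold lower, had the smallest adjusted p of all members. Gstt1 (ENSMUSG00000001663.10, chromosome 10, 75783813 to 75798584, minus strand), the most abundant of the class, had 193, 232, 238, 194 and 211 CPM in the Fbp1-deleted livers, against 317, 335, 277, 244 and 313 CPM in the WT livers. The highest Fbp1-deleted liver (replicate 8) lay just under the lowest WT liver (replicate 4), and the change was -0.48 (SE 0.11, adjusted p = 0.00882). Gstt2 (ENSMUSG00000033318.7, chromosome 10, 75831114 to 75837424, minus strand) had 48.9, 62.6, 72.5, 48.9 and 58.97 CPM in the Fbp1-deleted livers, against 127, 121, 71.98, 76.4 and 95.7 CPM in the WT livers. Here Fbp1-deleted replicate 8 and WT replicate 3 were nearly equal, and the change was -0.76 (SE 0.17, adjusted p = 0.00874). The share of Gstt3 in the theta-class level per length was between 20.3% and 28.2% in Fbp1-deleted livers and between 32.1% and 36.6% in WT livers, while that of Gstt1 was between 56.7% and 63.3% in Fbp1-deleted livers and between 47.04% and 52.9% in WT livers. All 3 stayed called under each of the 19 alternatives. Gstt3 shared 12.8% of its words with the overlapping annotation Gm20441, and Gstt1 and Gstt2 shared few.

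The pi class held the only glutathione transferase called higher. Gstp2 (ENSMUSG00000038155.10, chromosome 19, 4040285 to 4046023, minus strand) had 11.4, 17.2, 3.78, 39.1 and 17.9 CPM in the Fbp1-deleted livers, against 3.44, 2.49, 2.06, 3.005 and 2.73 CPM in the WT livers. The Fbp1-deleted livers ranged from just above the WT livers (replicate 8) to far above them (replicate 9), and the change was 2.69 (SE 0.52, adjusted p = 0.00675), or 6.47-fold higher. Its neighbour Gstp1 (ENSMUSG00000060803.5, chromosome 19, 4035407 to 4037985, minus strand), the abundant pi-class enzyme of mouse liver, had 379, 469, 395, 629.7 and 674 CPM in the Fbp1-deleted livers, against 500.5, 436, 261, 423 and 257 CPM in the WT livers. Gstp1 overlapped between the groups, at 0.44 (SE 0.23, adjusted p = 0.191), and replicates 9 and 10 were the highest of the Fbp1-deleted livers. Of the pi-class level per length Gstp2 made up between 1.52% and 9.42% in Fbp1-deleted livers and between 0.911% and 1.61% in WT livers. With the counts of both genes summed, because of the shared sequence shown above, the change was 0.48 (SE 0.23, adjusted p = 0.161). Most of the summed counts are those of Gstp1, so the summed fit cannot show whether Gstp2 differed. In its 19 alternatives the call of Gstp2 was lost in 1, without WT replicates 4 and 5 together (adjusted p = 0.0502). That fit was chosen after the data were seen, and the adjusted p over the 19 was between 5.17e-06 and 0.0502. Gstp3 was not called, at -0.51 (SE 0.25, adjusted p = 0.168).

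The remaining glutathione transferases comprise the kappa-class enzyme of mitochondria and peroxisomes, the omega class with its dehydroascorbate reductase activity, and the membrane-bound microsomal enzymes. The first 2 were not called, with Gstk1 at 96.3 ± 4.95 CPM in Fbp1-deleted and 99.97 ± 9.93 CPM in WT livers (SD, n = 5 each) and Gsto1 at 115 ± 8.58 CPM in Fbp1-deleted and 131 ± 7.85 CPM in WT livers. Gsto1 gave a fitted change of -0.20 (SE 0.09, adjusted p = 0.134) with TMM and was called lower under upper quartile scaling (adjusted p = 0.0465) and under library totals (adjusted p = 0.0341), over a range between 0.0341 and 0.325 in its 19 alternatives. Mgst1, which also reduces lipid peroxides, was the most abundant member per length in Fbp1-deleted livers, at 1554 CPM per kb in Fbp1-deleted and 1501 CPM per kb in WT livers, and had 1278, 1262, 1169, 1352 and 1370.4 CPM in the Fbp1-deleted livers, against 1365, 1155, 1294, 1227 and 1171 CPM in the WT livers. The groups overlapped fully, and the fitted change of 0.05 (SE 0.09, adjusted p = 0.745) was of the opposite sign under upper quartile scaling (-0.03) and under library totals (-0.04). Mgst3 (ENSMUSG00000026688.5, chromosome 1, 167371966 to 167393841, minus strand) had 12.6, 14.3, 12.99, 11.5 and 17.2 CPM in the Fbp1-deleted livers, against 31.2, 29.9, 15.4, 12.8 and 22.7 CPM in the WT livers. WT replicates 1, 2 and 5 were above all Fbp1-deleted livers and WT replicates 3 and 4 within their range, and the change was -0.71 (SE 0.23, adjusted p = 0.0492). That call was lost on leaving out any 1 of Fbp1-deleted replicates 6, 7, 8 and 9 and WT replicates 1, 2 and 5 (adjusted p between 0.0765 and 0.117), with limma-voom (0.0737) and without the filter (0.125), over a range between 0.00837 and 0.125.

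**Figure D3:**
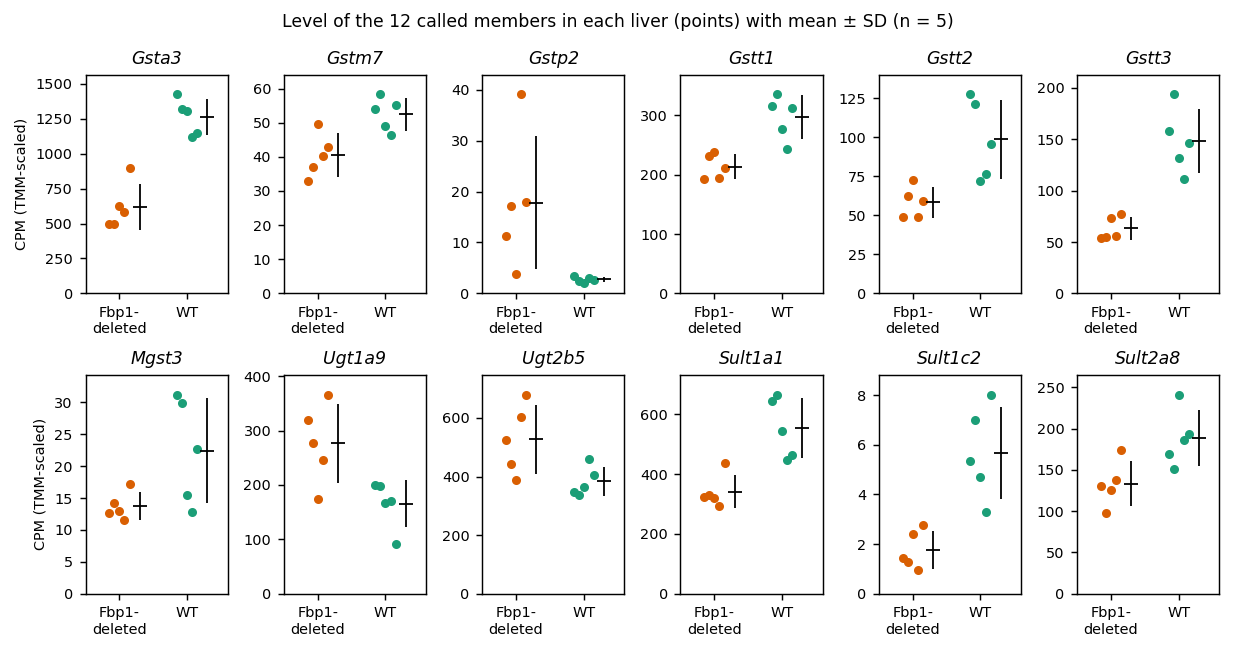
Level (CPM, linear axes from 0) of the 12 called members in each liver, Fbp1-deleted in orange on the left and WT in green on the right, with the mean ± SD (n = 5 each) in black. The groups are separate for Gsta3, Gstp2, Gstt1, Gstt3, Sult1a1 and Sult1c2 and overlap for the other 6.

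The Ugt1 locus spans 164.6 kb of chromosome 1 and holds 9 members. Its most abundant product was Ugt1a1, the enzyme that conjugates bilirubin, at 408 CPM per kb in Fbp1-deleted and 481 CPM per kb in WT livers. Ugt1a1 (ENSMUSG00000089960.1, chromosome 1, 88211959 to 88218997, plus strand) had 927, 877, 879, 852 and 997 CPM in the Fbp1-deleted livers, against 869, 1036, 1212, 1024 and 1202 CPM in the WT livers. WT replicate 1 was among the lowest and WT replicate 3 the highest, and the change was -0.24 (SE 0.11, adjusted p = 0.142). Ugt1a9 (ENSMUSG00000090175.1, chromosome 1, 88070800 to 88218997, plus strand), a phenol-conjugating enzyme, had 319, 277, 175, 246 and 366 CPM in the Fbp1-deleted livers, against 200.3, 198, 166, 171 and 92.2 CPM in the WT livers. WT replicate 5 was the lowest liver, Fbp1-deleted replicate 8 overlapped the WT livers, and the change was 0.74 (SE 0.23, adjusted p = 0.0391). Of the Ugt1 level per length Ugt1a9 made up between 13.96% and 23.2% in Fbp1-deleted livers and between 5.92% and 15.5% in WT livers, and Ugt1a1 made up between 62.3% and 69.02% in Fbp1-deleted livers and between 66.2% and 76.01% in WT livers. Summed over the locus, the Ugt1 genes gave -0.11 (SE 0.11, adjusted p = 0.497). The call of Ugt1a9 was lost on leaving out any 1 of Fbp1-deleted replicates 6, 7, 9 and 10 and WT replicates 2, 3 and 4 (adjusted p between 0.0514 and 0.0929), with upper quartile scaling (0.0689), library totals (0.0598), no filter (0.128) and without WT replicates 4 and 5 together (0.0933), over a range between 0.00551 and 0.128. The other 7 Ugt1 genes were not called, with Ugt1a5 at -0.76 (SE 0.28, adjusted p = 0.0804) and Ugt1a6a at 0.01 (SE 0.16, adjusted p = 0.964) as the 2 most abundant of them in WT livers.

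Ugt2 enzymes conjugate steroids, bile acids and drugs, and 7 of the 10 genes were tested. Ugt2b5 (ENSMUSG00000054630.7, chromosome 5, 87124960 to 87140318, minus strand) had 526, 441, 389, 604 and 679 CPM in the Fbp1-deleted livers, against 349, 336, 364, 461 and 405 CPM in the WT livers. Fbp1-deleted replicates 9 and 10 were the highest and replicates 7 and 8 fell within the WT range, and the change was 0.46 (SE 0.15, adjusted p = 0.0425). Ugt2b5 shared 56.4% of its words with other genes, chiefly Ugt2b38, and summed with Ugt2b37 and Ugt2b38 it gave 0.46 (SE 0.15, adjusted p = 0.0437). The call of Ugt2b5 was lost on leaving out any 1 of Fbp1-deleted replicates 6, 9 and 10 and WT replicates 1, 2, 3 and 5 (adjusted p between 0.0704 and 0.106), with upper quartile scaling (0.0636), library totals (0.0815) and limma-voom (0.0548), over a range between 0.0104 and 0.106. Ugt2b36 (ENSMUSG00000070704.10, chromosome 5, 87065927 to 87092555, minus strand), the most abundant Ugt2 gene per length, had 328, 285, 263, 366 and 465 CPM in the Fbp1-deleted livers, against 323, 311, 316, 338 and 270.4 CPM in the WT livers, with overlapping groups and a change of 0.13 (SE 0.14, adjusted p = 0.55). Without Fbp1-deleted replicate 10 that change had the opposite sign (-0.01). Of the 2 Ugt3 genes neither was called. The more abundant, Ugt3a2 (ENSMUSG00000049152.11, chromosome 15, 9335550 to 9370955, plus strand), had 339.8, 295, 272, 308 and 364 CPM in the Fbp1-deleted livers, against 290.1, 295, 348, 302 and 299 CPM in the WT livers and a change of 0.04 (SE 0.10, adjusted p = 0.808), whose sign was opposite with upper quartile scaling (-0.03), library totals (-0.04) and without Fbp1-deleted replicate 10 (-0.02).

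Among the sulfotransferases the phenol-conjugating Sult1a1 was the most abundant per length by group mean, at 264 CPM per kb in Fbp1-deleted and 429 CPM per kb in WT livers. It was not so in every liver, since Sult2a1 was above it in WT replicate 5. The share of Sult1a1 in the sulfotransferase level per length was between 19.9% and 40.1% in Fbp1-deleted livers and between 19.5% and 49.5% in WT livers. Sult1a1 (ENSMUSG00000030711.15, chromosome 7, 126672865 to 126676432, minus strand) had 323, 329.9, 321, 293 and 436 CPM in the Fbp1-deleted livers, against 643, 666, 546, 447 and 465 CPM in the WT livers. No Fbp1-deleted liver reached the lowest WT liver, though replicate 10 came close to it, and the change was -0.70 (SE 0.14, adjusted p = 0.00412), or 1.63-fold lower. Sult1c2 (ENSMUSG00000023122.6, chromosome 17, 53829637 to 53846339, minus strand) had 1.44, 1.28, 2.42, 0.971 and 2.76 CPM in the Fbp1-deleted livers, against 5.36, 6.99, 4.71, 3.28 and 8.02 CPM in the WT livers, at most 171 estimated counts in a library. It had the strongest fitted fall of the set, -1.67 (SE 0.31, adjusted p = 0.00244), with no overlap. Both stayed called under all 19 alternatives. Sult2a8 (ENSMUSG00000030378.15, chromosome 7, 14410686 to 14446769, minus strand), which is known in mice as a bile acid sulfotransferase, had 131, 98.2, 125, 138 and 174 CPM in the Fbp1-deleted livers, against 169.7, 151, 241, 186 and 194 CPM in the WT livers. Fbp1-deleted replicate 10 lay within the WT range, WT replicate 3 was the highest, and the change was -0.50 (SE 0.15, adjusted p = 0.0327). The call of Sult2a8 was lost on leaving out any 1 of Fbp1-deleted replicates 6, 7 and 9 and WT replicates 3 and 5 (adjusted p between 0.0622 and 0.0814) and without WT replicates 4 and 5 together (0.0932), over a range between 0.0112 and 0.0932. Of the sulfotransferases not called, Sult1d1, a catecholamine sulfotransferase in mice, was between 99.9 and 248 CPM in the Fbp1-deleted livers and between 106 and 146 CPM in the WT livers with a change of 0.52 (SE 0.21, adjusted p = 0.101), and Sult1b1, known for thyroid hormones and phenols, was between 4.46 and 12.3 CPM in the Fbp1-deleted livers and between 9.78 and 20.7 CPM in the WT livers with a change of -0.78 (SE 0.27, adjusted p = 0.0629).

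Sult2a8 belongs to a cluster of 8 genes within 870 kb of chromosome 7 that encode hydroxysteroid and bile acid sulfotransferases. Its neighbours Sult2a1, Sult2a2, Sult2a3 and Sult2a5, singled out after their values were seen, varied widely between the livers of each group. Sult2a1 had 306, 284, 24.7, 6.68 and 10.7 CPM in the Fbp1-deleted livers, against 374, 358, 87.2, 1.69 and 470.5 CPM in the WT livers. The highest liver (WT replicate 5) was 277.8 times the lowest (WT replicate 4), and Fbp1-deleted replicates 6 and 7 were far above replicates 8, 9 and 10. Sult2a2 had 219.7, 213, 38.6, 5.22 and 10.97 CPM in the Fbp1-deleted livers, against 289, 277, 84.4, 1.75 and 313 CPM in the WT livers, and its 10 livers fell in exactly the same order. Sult2a5 was between 0.182 and 16.3 CPM in the Fbp1-deleted livers and between 0.109 and 18.99 CPM in the WT livers, with WT replicate 4 lowest and Fbp1-deleted replicate 9 next, and Sult2a3 was at 0 in WT replicate 4 and at 53.8 CPM in WT replicate 5. None of the 4 was called, with changes of -1.03 (SE 1.41, adjusted p = 0.649) for Sult2a1, -0.98 (SE 1.30, adjusted p = 0.637) for Sult2a2, -1.08 (SE 1.28, adjusted p = 0.598) for Sult2a3 and -0.81 (SE 1.12, adjusted p = 0.652) for Sult2a5. The summed counts of Sult2a1, Sult2a2, Sult2a4 and Sult2a5, which share sequence, gave -1.01 (SE 1.37, adjusted p = 0.647).

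Sult2a transcripts are known to be higher in female than in male mouse liver, so the sex-biased genes were set beside them. All 10 livers held the X-inactivation transcript Xist (between 409.8 and 696 CPM in the Fbp1-deleted livers and between 342 and 696 CPM in the WT livers), and no Y-linked gene of the 4 listed exceeded 1.77 CPM. That is the pattern of female animals, also in WT replicate 4 (Xist at 342 CPM, Y-linked genes at most 1.09 CPM). Cyp3a41a, a female-biased cytochrome singled out after its values were seen, had 265, 196, 46.5, 20.7 and 25.7 CPM in the Fbp1-deleted livers, against 589, 495, 99.5, 3.17 and 1889 CPM in the WT livers, and was the 1 of 11 female-biased genes listed whose order over the 10 livers was the same as that of Sult2a1. Slco1a1, a male-biased organic anion transporter also singled out after its values were seen, had 20.3, 17.3, 62.9, 73.1 and 75.7 CPM in the Fbp1-deleted livers, against 1.38, 1.23, 8.07, 66.4 and 2.37 CPM in the WT livers. It was high where Sult2a1 was low, in Fbp1-deleted replicates 8, 9 and 10 and WT replicate 4, and low in WT replicates 1, 2 and 5. Fbp1-deleted replicates 6 and 7, with high Sult2a1, held more Slco1a1 (20.3 and 17.3 CPM) than WT replicates 1, 2 and 5. In WT replicate 3, with Sult2a1 in between, Slco1a1 was also low (8.07 CPM). WT replicate 4 was the lowest WT liver for 7 of the 11 female-biased genes and the highest for 8 of the 10 male-biased genes listed. The 8 include Hsd3b5 and Moxd1, which did not pass the filter on low counts (2.68 and 0.328 CPM in WT replicate 4). Of the other female-biased cytochromes listed, Cyp3a44 was also highest in WT replicate 5 and lowest in WT replicate 4, without the exact order of Sult2a1. Its levels in Fbp1-deleted replicates 6 and 7 were above those in replicates 8, 9 and 10. Cyp17a1 was likewise highest in WT replicate 5, but lowest in Fbp1-deleted replicate 10. Cyp2b9, Cyp2b13 and Cyp2a4 had orders different from that of Sult2a1 too. Cyp2b9 had 280.2, 267, 303, 229.9 and 345 CPM in the Fbp1-deleted livers, against 196, 229, 377, 307 and 388 CPM in the WT livers, with WT replicate 1 lowest. Cyp2b13 had 98.2, 87.3, 163, 66.7 and 156 CPM in the Fbp1-deleted livers, against 129, 128, 257, 146 and 81.2 CPM in the WT livers, with WT replicate 5, the highest liver for Sult2a1, the lowest of the WT livers. Cyp2a4 was between 928 and 1086 CPM in the Fbp1-deleted livers and between 536 and 1334 CPM in the WT livers. WT replicate 4 was lowest and WT replicate 5 highest for Cyp2a4, with little spread among the Fbp1-deleted livers. Of the 11 female-biased genes 2 were called lower, where 10% of all genes tested were, Cux2 at -2.10 (SE 0.34, adjusted p = 0.00264) and Acot3 at -2.02 (SE 0.20, adjusted p = 6.34e-05). The median change was -2.02 over the 11 female-biased genes and 0.45 over the 8 male-biased genes tested, against 0.0093 over all genes tested. Of the female-biased genes not called, Cyp3a44, A1bg, Cyp3a41a and Hao2 had the strongest fitted falls, and Cyp2a4 was fitted higher. Of 8 male-biased genes tested 2 were called higher, where 10.6% of all genes tested were, Elovl3 at 1.59 (SE 0.28, adjusted p = 0.00181) and Cyp2d9 at 1.34 (SE 0.39, adjusted p = 0.0378) and 1 lower, Selenbp2 at -1.97 (SE 0.43, adjusted p = 0.0111). The part of these differences in the sulfotransferase results was not tested. Sult3a1, an amine sulfotransferase, followed another order, with 60.7, 40.5, 75.4, 19.5 and 118 CPM in the Fbp1-deleted livers, against 59.8, 42.7, 75.1, 10.2 and 52.05 CPM in the WT livers and a change of 0.39 (SE 0.57, adjusted p = 0.671).

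**Figure D4:**
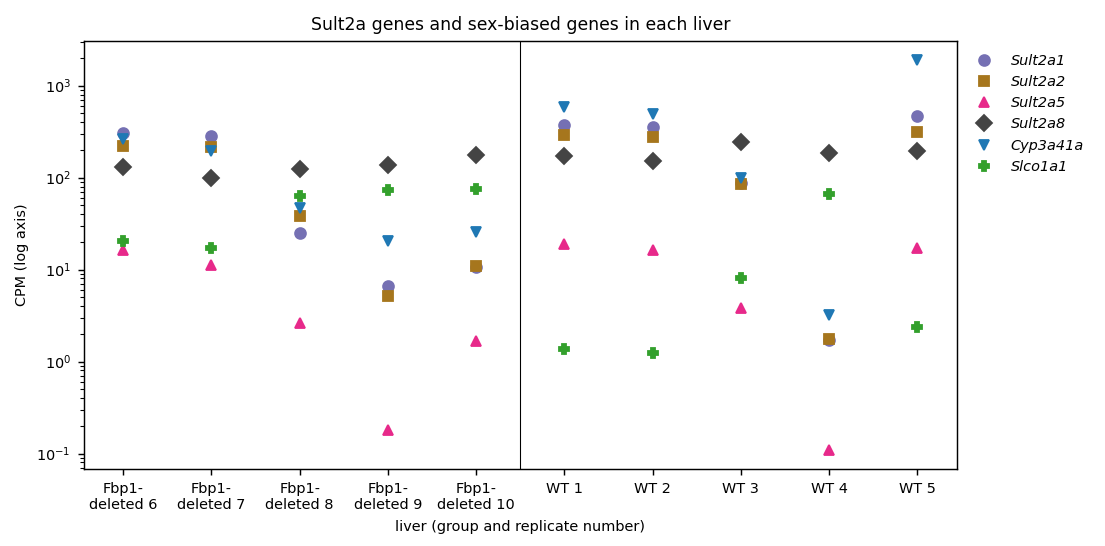
Level (CPM, log axis) of Sult2a1, Sult2a2, Sult2a5 and Sult2a8 and of the sex-biased genes Cyp3a41a and Slco1a1 in each liver, Fbp1-deleted replicates on the left of the line and WT replicates on the right. Sult2a1 runs from 1.69 CPM in WT replicate 4 to 470.5 CPM in WT replicate 5 and orders the livers as Cyp3a41a does, while Sult2a8 stays between 98.2 and 241 CPM.

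The other genes of conjugation, a list of 45 chosen by role, gave 6 calls higher and 6 lower among 43 tested, where 10.6% of all genes tested were called higher and 10% lower. The genes that supply glutathione (5 tested) and those that export conjugates (5 tested) gave 0 calls each by edgeR, DESeq2 and limma-voom, and 1 each at an unadjusted p under 0.05. For UDP-glucuronate supply, Ugp2, which makes UDP-glucose, had 351, 269.8, 279, 349.7 and 447 CPM in the Fbp1-deleted livers, against 222, 234, 206, 215 and 172 CPM in the WT livers, with no overlap and a change of 0.69 (SE 0.14, adjusted p = 0.00409). Ugdh, which oxidises it to UDP-glucuronate, was at 0.36 (SE 0.17, adjusted p = 0.138) and not called, and Slc35d1, which carries UDP-glucuronate into the endoplasmic reticulum, was lower at -0.30 (SE 0.09, adjusted p = 0.0387). For sulfate, Papss2, which makes PAPS, had 106, 94.3, 144, 119 and 183 CPM in the Fbp1-deleted livers, against 245, 278, 198, 147 and 255 CPM in the WT livers. WT replicate 4 lay within the Fbp1-deleted range, and the change was -0.80 (SE 0.20, adjusted p = 0.0157). Papss1, the other PAPS synthase, was at 0.31 (SE 0.20, adjusted p = 0.296). Enzymes that take the group off again were higher for 2 of 4 genes, the lysosomal glucuronidase Gusb at 0.81 (SE 0.14, adjusted p = 0.0017) and the sulfatase Arsa at 0.70 (SE 0.13, adjusted p = 0.00276), both without overlap.

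Among 11 regulators 3 were called lower and 0 higher by edgeR (2 higher at an unadjusted p under 0.05, 0 by DESeq2 and 0 by limma-voom), beside 10% lower and 10.6% higher over all genes tested. Nr1i3, the constitutive androstane receptor that switches on many of these transferases, had 329.8, 399.5, 303, 269 and 231 CPM in the Fbp1-deleted livers, against 747, 599, 663, 494 and 707 CPM in the WT livers. Its groups did not overlap, and the change was -1.07 (SE 0.15, adjusted p = 0.000478). The estrogen receptor gene Esr1 was at 10.9 ± 2.84 CPM in Fbp1-deleted and 26.2 ± 3.98 CPM in WT livers, a change of -1.27 (SE 0.18, adjusted p = 0.000399), and Rxra, the partner of Nr1i3, at -0.36 (SE 0.10, adjusted p = 0.0242). Nfe2l2, the regulator of the antioxidant response, was not called, at 0.38 (SE 0.17, adjusted p = 0.12). Of 10 other genes known to be induced by these regulators, 3 were called higher and 1 lower. Srxn1, an antioxidant response gene, had 68.5, 69.9, 34.6, 71.7 and 63.6 CPM in the Fbp1-deleted livers, against 27.4, 32.03, 23.2, 26.7 and 24.8 CPM in the WT livers and a change of 1.20 (SE 0.18, adjusted p = 0.000641). Nqo1, another such gene, was at -0.38 (SE 0.20, adjusted p = 0.203) and not called. Txnrd1 and Hmox1 of the same list were not called either. Cyp2b10, the classical target of Nr1i3, had 106, 107, 45.04, 144 and 157 CPM in the Fbp1-deleted livers, against 16.5, 17.2, 62.9, 58.7 and 33.1 CPM in the WT livers and a change of 1.57 (SE 0.48, adjusted p = 0.0462), opposite in sign to that of Nr1i3. The called aryl hydrocarbon receptor targets differed in direction, Tiparp at 1.15 (SE 0.28, adjusted p = 0.0132) and Cyp1a2 at -0.69 (SE 0.14, adjusted p = 0.00512). Cyp1a1, also on the list, was not called. Calls of 4 of the 12 were lost in some fits. All 4 were lost without WT replicates 4 and 5 together (adjusted p = 0.0634 for Slc35d1, 0.126 for Rxra, 0.102 for Cyp2b10 and 0.0679 for Tiparp), and 3 without the filter on low counts (0.103 for Slc35d1, 0.116 for Cyp2b10 and 0.0513 for Tiparp). The call of Slc35d1 was also lost on leaving out any 1 of Fbp1-deleted replicates 6, 7, 8, 9 and 10 and WT replicates 2, 3 and 4, that of Rxra on leaving out any 1 of Fbp1-deleted replicates 6 and 9 and WT replicates 2, 3 and 5 and that of Cyp2b10 on leaving out any 1 of Fbp1-deleted replicates 6, 7, 9 and 10 and WT replicates 1, 2 and 5. Over 19 alternatives the adjusted p was between 0.00653 and 0.103 for Slc35d1, between 0.00256 and 0.126 for Rxra, between 0.00819 and 0.116 for Cyp2b10 and between 0.000365 and 0.0679 for Tiparp.

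**Figure D5:**
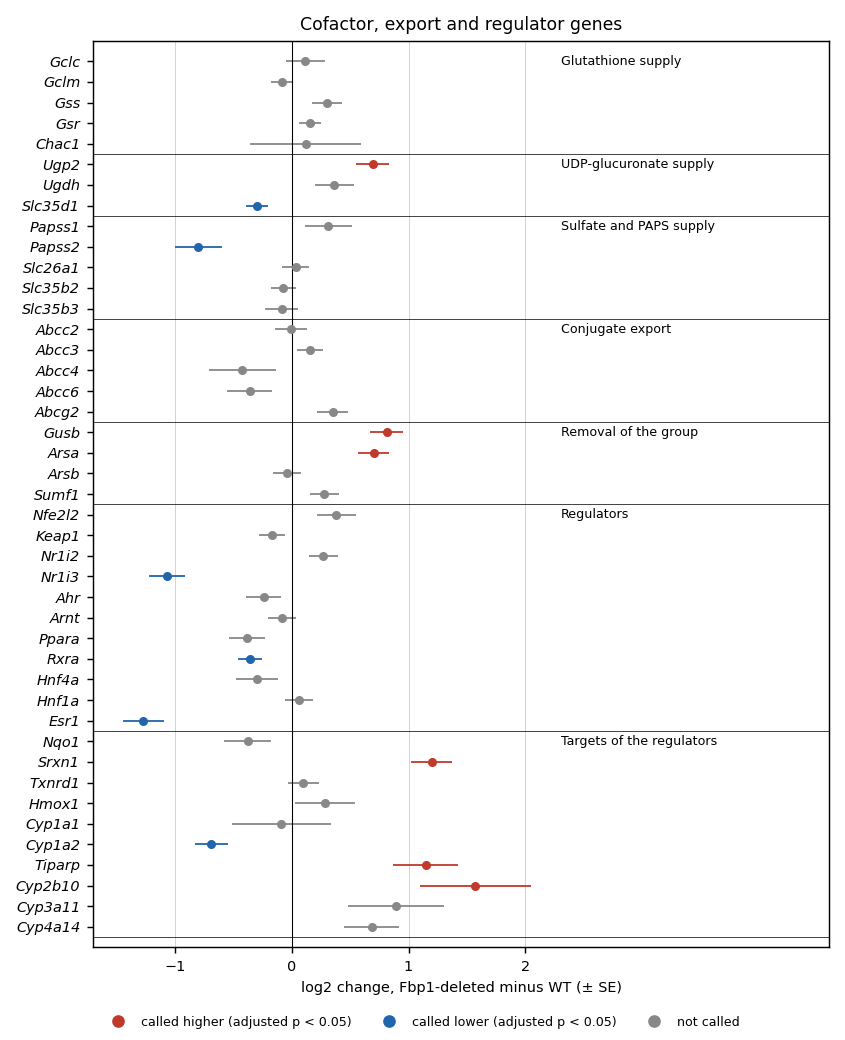
Log2 change (Fbp1-deleted minus WT, points, with the SE as bars) of the 43 tested genes for cofactor supply, export, removal and regulation, grouped by role, in red where called higher, in blue where called lower and in grey where not called. The regulators Nr1i3 and Esr1 lie furthest left, and Srxn1, Tiparp and Cyp2b10 furthest right.

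Promoter sequence was searched for the motifs of 3 regulators known for these genes, in RefSeq windows of GRCm38.p6 from 250 bases before to 50 after a gene's start. Of the members 58 matched by symbol, with 69 windows. The antioxidant response motif TGACNNNGC, searched on both strands, was in 4 member windows (5.8%), against 12.4% of all 32851 windows. The 4 are shown with 10 bases on either side and the motif in capitals, at chr1:21240454-21240482 (plus strand), chr3:107895802-107895830 (plus), chr3:107931725-107931753 (minus) and chr6:138140461-138140489 (plus), the last holding the reverse complement.
Gsta3: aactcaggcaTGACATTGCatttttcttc
Gstm5: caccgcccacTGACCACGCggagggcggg
Gstm7: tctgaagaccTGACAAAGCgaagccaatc
Mgst1: gcggggcttgGCACGGTCAggaggcgggg
They begin 121, 42, 129 and 56 bases before the RefSeq start of their window in Gsta3, Gstm5, Gstm7 and Mgst1. Gstm7 and Mgst1 also had a window at another start without the motif, for Gstm7 at chr3:107931768-107932067. The Gstm7 and Mgst1 matches lie inside the gene spans used for the counts, 107926334 to 107931817 and 138140316 to 138156755. Of these 4 genes Gsta3 and Gstm7 were called lower and Gstm5 and Mgst1 were not called, with Gstm5 at -0.08 (SE 0.19, adjusted p = 0.813). The xenobiotic response core GCGTG was in 14 member windows (20.3%), against 32.4% of all, and in Gstm5 its reverse complement overlaps the antioxidant motif. The STAT5 motif TTCNNNGAA was in 6 member windows (8.7%), against 8.3% of all. A match is a string of letters and was not tested as a binding site.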

How the data were processed

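RNA of 10 whole livers, 5 Fbp1-deleted and 5 WT, was sequenced from both ends in libraries that do not keep the strand, per the labels' protocols and the design text. The authors deposited 1 table of estimated counts per gene, not normalized. The submitters' processing notes name Salmon, CASAVA and the build GRCm38, and the design text also describes STAR and featureCounts. Adjustment for transcript length is not given in the sources used here. Salmon assigns ambiguous reads by a statistical model, and without strand, reads of overlapping genes on opposite strands cannot be separated. The exons of 16 members overlap another gene.

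All deposited values were whole. Of 53392 genes, 52175 matched GENCODE M21 by identifier and version, 1180 by identifier alone and 37 not. Totals were between 17778395 and 23894812 estimated counts. No 2 libraries of a group agreed within sampling noise (smallest chi-square per degree of freedom 14.2). The closest pairs were Fbp1-deleted replicates 6 and 7 (14.2) and WT replicates 1 and 2 (14.8). The furthest apart were WT replicates 1 and 4 (61), and why some pairs were closer was not tested.

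The test was run in edgeR 4.0.16 under R 4.3.3 (filterByExpr, TMM, robust quasi-likelihood F test, no covariate), with Benjamini-Hochberg adjustment over 15392 genes. The SE is the size of the change over the root of F. The biological coefficient of variation was 0.235. CPM per kb divides by the median length of a gene's protein-coding transcripts. Shared words are the 31-base words of a gene's transcripts found in another gene's. Alternatives were RLE factors, upper quartile scaling, library totals, no filter, a filter of 1 CPM in 5 libraries, DESeq2 1.42.0, limma-voom (limma 3.58.1), no robust shrinkage and each library left out. Summing members that share at least 25% of their words, and leaving out WT replicates 4 and 5 (which stood apart in sex-biased genes), were added after the data were seen. Sequences came from the GRCm38 transcripts and RefSeq promoters, read with Python 3.11.15.

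The members and lists were chosen with earlier results of these data known. The members named were those called, those without overlap and the most abundant per length of each family (20 in all), and of the other genes of conjugation those called. Sult2a1, Sult2a2, Sult2a3, Sult2a5 and Sult3a1, and the uncalled genes given with values, were named after their values were seen.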

Additional observations from a re-analysis of the deposited data

Results flagged for a closer look

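Among 130 groups of 5 values, for the 65 tested genes given above or below with values of their own, 8 had a library that stood apart from the other 4 by Dixon's test, where chance gives about 1 in 20. In Fbp1-deleted livers Sult1a1 was at 435.52 CPM in replicate 10 and between 292.63 and 329.87 CPM in the others. In the same group Srxn1 was at 34.616 CPM in replicate 8 and between 63.595 and 71.67 CPM in the others, and Nfe2l2 at 79.687 CPM in replicate 10 and between 55.331 and 60.881 CPM in the others. In WT livers Ugt3a2 was at 347.95 CPM in replicate 3 and between 290.11 and 301.53 CPM in the others. WT replicate 4 stood apart for the sex-biased Slco1a1, at 66.437 CPM against 1.2258 to 8.0705 CPM in the other WT livers, and Acot3, at 169.81 CPM against 336.6 to 393.53 CPM. WT replicate 5 stood apart for Sult5a1, at 41.863 CPM against 19.286 to 23.507 CPM in the other WT livers, and the sex-biased Cux2, at 135.05 CPM against 65.377 to 74.359 CPM.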

How the results depend on the processing

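No paired analysis was possible because the labels give no pairing between the 2 groups. Of the 12 called members 6 stayed called under each of 19 alternatives (Gsta3, Gstt1, Gstt2, Gstt3, Sult1a1 and Sult1c2), as did 8 of 12 called genes of cofactors and regulators. Among members 7 to 15 were called with a library left out (1 to 5 higher, 6 to 13 lower), against 12 (3 and 9) in all. The count fell to 7 without Fbp1-deleted replicate 6 and to 7 without replicate 9. Members called higher fell to 1 with upper quartile scaling, 1 with library totals, 1 with near-identical members summed and 1 without WT replicates 4 and 5. Over all genes a left-out library gave 2105 to 3918 calls (1066 to 2060 higher, 1019 to 1858 lower), lowest without Fbp1-deleted replicate 6 (2105, of which 1086 higher), and 1066 higher without replicate 9. Among the other genes of conjugation it gave 9 to 13 calls (5 to 8 higher, 4 to 7 lower). Signs opposite to those reported were fitted for the uncalled Mgst1 (-0.025 with upper quartile scaling, -0.039 with library totals), Ugt3a2 (-0.030 and -0.044, and -0.020 to 0.092 with a library left out) and Ugt2b36 (-0.012 to 0.21 with a library left out), the lowest of each range without Fbp1-deleted replicate 10. The median change of all genes moved by under 0.1 with each scaling. The cause of these shifts was not tested.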

Other observations

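The Sult3a genes, not among those called, showed a spread of their own. Sult3a2 was between 0.425 and 8.93 CPM in the Fbp1-deleted livers and between 0.164 and 5.42 CPM in the WT livers, lowest in Fbp1-deleted replicate 9 and WT replicate 4, the same 2 livers in which Sult3a1 and Sult2a1 were lowest, and highest in Fbp1-deleted replicate 10. Sult2a7 was between 10.5 and 35.1 CPM in the Fbp1-deleted livers and between 13.4 and 128 CPM in the WT livers, highest in WT replicate 5, with a change of -1.27 (SE 0.55, adjusted p = 0.138). Sult5a1 was between 12.4 and 24.3 CPM in the Fbp1-deleted livers and between 19.3 and 41.9 CPM in the WT livers, with a change of -0.51 (SE 0.23, adjusted p = 0.148), and WT replicate 5 was again the highest liver.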
